A study of Homo sapiens with 12 samples.

Results

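The 52 mitosis and spindle genes described here were taken by symbol from 26485 genes listed in the tables of HT-29 cells, a human colon adenocarcinoma line. They encode the cyclins, kinases, motors, kinetochore and spindle proteins with which a cell divides, and they were placed in 10 roles. All 52 were measured above a mean of 10 scaled reads, which 11708 genes in all passed. A scaled read is a read divided by the size factor of its library, the factor that brings libraries of unequal depth onto a common scale. Polyadenylated RNA was sequenced after 8 h of treatment in 4 groups of 3 libraries each. The first group received TSZ+Nec-1s, which is TSZ with 10 μM Nec-1s, an inhibitor of the kinase RIPK1. The second received TSZ, in which TNF-α (10 ng/ml) was joined by SM-164, a Smac mimetic given at 50 nM, and zVAD, a pan-caspase inhibitor given at 20 μM, a mixture that induces necroptosis. TNF-α alone at 10 ng/ml and the solvent DMSO made up the other groups. All libraries came from 1 cell line, and neither the labels nor the methods say whether the 3 libraries of a group were separate cultures. The p-values therefore measure only the spread between these libraries, which may be technical.

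Mitotic genes are transcribed late in the cell cycle, and their mRNAs build up in G2 phase and are lost as cells enter G1. CDK1 bound to cyclin A or B starts mitosis, Polo-like and Aurora kinases drive centrosome and spindle work, kinetochores tie chromosomes to microtubules, and the checkpoint holds the anaphase-promoting complex back until all chromosomes are attached. The promoters of many such genes carry a cell cycle genes homology region, or CHR, where the MuvB core binds with the pocket proteins as the repressive DREAM complex in resting cells, or with B-MYB and FOXM1 in dividing cells. Upstream of it often lies a CCAAT box, where the activator NF-Y binds. In colon epithelium these genes mark the dividing cells of the crypt base, and in carcinoma lines they follow the share of cycling cells.

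Promoter sequences from RefSeq (GRCh38.p14, 250 bases before to 50 after the start of transcription) matched 45 of the 52 genes by symbol, with 57 starts. UBE2C, TTK, BIRC5, BUB3, FOXM1, AURKA and TPX2 had no entry. The search read TTTGAA or TTCGAA on both strands as CHR letters and CCAAT on both strands as the NF-Y box. CHR letters stood in the window of 35 of 45 genes (77.8%), against 5336 of 27305 genes in the RefSeq table (19.5%) and 15.2% of the 8880 tested genes with an entry. CCAAT letters stood in 36 of 45 (80%), against 39.7% of the RefSeq genes. Both were present in a promoter of 28 of 45 (62.2%), against 7.85% of the RefSeq genes. Within 100 bases before to 50 after the start, CHR letters stood in 33 of 45 genes (73.3%), against 9.09%. These shares are descriptions of letters in a window, not of bound sites.

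The 6 stretches shown run from 120 bases before to 30 bases after the start, 5′ to 3′ on the strand of the gene, with CHR and CCAAT letters in capitals. They were chosen to show how the arrangement of these letters varies among the genes. PLK1 has a CCAAT box upstream of a CHR just before the start, MKI67 has a pair of CHR matches, CDCA8 shares with MKI67 a CHR whose last base is the first base of a CCAAT match on the other strand, KIF15 has the CHR on the other strand and no CCAAT in the stretch, NUSAP1 has its CHR letters after the start, and KIF20A, which had the largest fall in TSZ, has CCAAT letters and no CHR letters.
MKI67 (chr10:128126394-128126543, minus strand): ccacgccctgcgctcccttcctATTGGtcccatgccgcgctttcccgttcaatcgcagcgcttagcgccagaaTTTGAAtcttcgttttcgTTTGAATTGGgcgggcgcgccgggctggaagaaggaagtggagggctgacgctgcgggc
PLK1 (chr16:23678769-23678918, plus strand): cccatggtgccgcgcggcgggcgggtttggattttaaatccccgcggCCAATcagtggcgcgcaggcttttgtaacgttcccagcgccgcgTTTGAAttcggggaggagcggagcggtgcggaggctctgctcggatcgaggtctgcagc
CDCA8 (chr1:37692396-37692545, plus strand): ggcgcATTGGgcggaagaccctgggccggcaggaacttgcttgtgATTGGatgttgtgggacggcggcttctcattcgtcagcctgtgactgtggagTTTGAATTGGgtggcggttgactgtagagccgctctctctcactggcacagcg
KIF15 (chr3:44761674-44761823, plus strand): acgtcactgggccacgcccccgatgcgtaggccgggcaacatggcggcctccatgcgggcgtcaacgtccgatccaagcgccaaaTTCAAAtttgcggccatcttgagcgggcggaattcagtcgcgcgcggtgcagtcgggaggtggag
NUSAP1 (chr15:41332761-41332910, plus strand): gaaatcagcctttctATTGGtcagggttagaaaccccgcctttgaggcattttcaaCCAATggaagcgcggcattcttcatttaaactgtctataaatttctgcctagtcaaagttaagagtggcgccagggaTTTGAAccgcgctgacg
KIF20A (chr5:138178992-138179141, plus strand): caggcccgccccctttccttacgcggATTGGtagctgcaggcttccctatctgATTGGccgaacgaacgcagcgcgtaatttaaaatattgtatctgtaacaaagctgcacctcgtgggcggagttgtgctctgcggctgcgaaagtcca

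The CHR letters of the 45 genes lay close to the start, with the median of their first bases at position -26 over 51 matches, and 25 of the 51 began within the 50 bases before the start. The CCAAT letters lay further upstream, with a median first base at position -78 over 83 matches. A CHR match overlapped a CCAAT match in 2 of the 57 promoters, those of MKI67 and CDCA8.

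**Figure D1:**
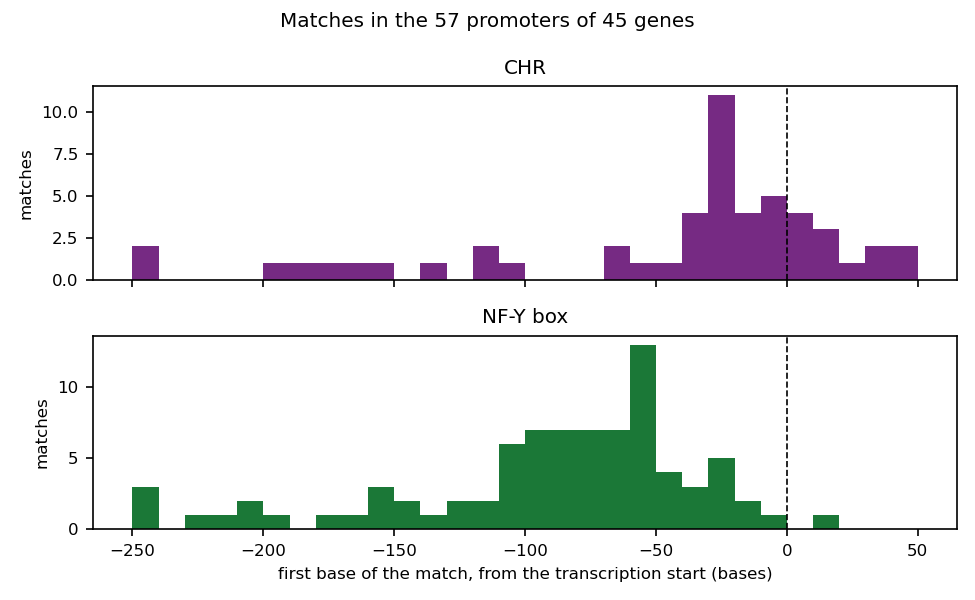
Number of CHR matches (top) and NF-Y box matches (bottom) in bins of 10 bases, against the distance of their first base from the start of transcription in bases, over the 57 promoters of 45 mitosis and spindle genes. The CHR matches gather around a median of -26 and the NF-Y box matches around a median of -78.

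Depth was similar across the 12 libraries, at an estimated 8812576 to 12730029 reads each. The 52 genes rested on 30 to 10417 reads per gene and library, the lowest being SPC24 in a TSZ library. The values per library were solved from group means, so the letters a, b and c only name the libraries of a group and pair nothing across groups. Before any comparison, 3 libraries stood apart by base composition. DMSO library b, TSZ library a and TNF-α library a held more reads of AT-rich transcripts than the rest of their groups, with rank correlations between transcript GC content and deviation from the group mean of -0.79, -0.74 and -0.60 over 10882 genes. Since deviations within a group sum to about 0, the values of the remaining libraries in part mirror these. DMSO libraries a and c still differed from each other, with median log2 deviations of -0.13 and -0.50 in the 26 members of lower GC content. Among the 52 genes the 3 libraries named above also stood apart, with rho of -0.93, -0.90 and -0.89. The counts of called genes among the 52, by role and in the lists are therefore also given without them, a choice made after the data were seen, and the part of base composition in the results was not tested. Sums of marker lists hold only genes whose reads were solved in every library. Of the 12 markers of colon epithelium, 7 were tested. The sums of this list were 23997 to 24502 scaled reads per library in TSZ+Nec-1s, 40325 to 42051 in TSZ, 21879 to 24142 in TNF-α and 20840 to 24030 in DMSO. Of the 8 leukocyte markers PTPRC and CD3E had no read, and LYZ, which epithelium also expresses, held nearly all of the sums of 15233 to 16024, 19356 to 20781, 14638 to 15823 and 14863 to 15197 in the same order of groups. ITGAM averaged 218 scaled reads in TSZ+Nec-1s, 117 in TSZ, 134 in TNF-α and 9.33 in DMSO, and CD14 averaged 30.6, 12.6, 49.4 and 80.8 in these groups. The solved genes among the 9 markers of fibroblasts and endothelium, led by COL1A1, summed to 45 to 61 scaled reads in TSZ+Nec-1s, 213 to 496 in TSZ, 47 to 63 in TNF-α and 57 to 202 in DMSO. The part of these marker lists in the results was not tested.

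TSZ lowered most of the mitosis and spindle genes. Of the 52, 38 were lower and 1 was higher in TSZ than in DMSO (limma with precision weights over all genes, Benjamini-Hochberg adjusted p under 0.05), against 24.2% lower and 25.9% higher among all 11708 genes tested. The median log2 fold change of the 52 was -0.72, against -0.02 over all genes, and 48 of the 52 had a negative sign. In 33 of the 52 every TSZ library lay below every DMSO library, against 25.1% of all genes, and without the 3 libraries this held for 46 of the 52, against 38.9%. The summed reads of the 52 genes came to 43958 ± 2690 scaled reads in TSZ and 68478 ± 5780 in DMSO (SD, n = 3 each), which was 0.347% and 0.721% of the estimated reads. These are bulk RNA values, so fewer mitotic cells and less of these mRNAs per cell cannot be told apart.

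With Nec-1s added, most of these mRNAs were higher than in TSZ alone. In TSZ+Nec-1s, 34 of the 52 genes were higher and 0 were lower than in TSZ by the same limma fit, against 19.8% higher and 22.5% lower among all genes. None of the 52 was lower even at an unadjusted p under 0.05. Counts at an unadjusted p, here and below, have no share over all genes beside them. The median log2 fold change of the 52 was 0.68, against 0.02 over all genes. In 38 of the 52 every TSZ+Nec-1s library lay above every TSZ library, against 28.1% of all genes, and without the 3 libraries for 46 of the 52, against 38.2%. Both comparisons share the 3 TSZ libraries, so their values are given side by side and are not independent of each other.

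**Figure D2:**
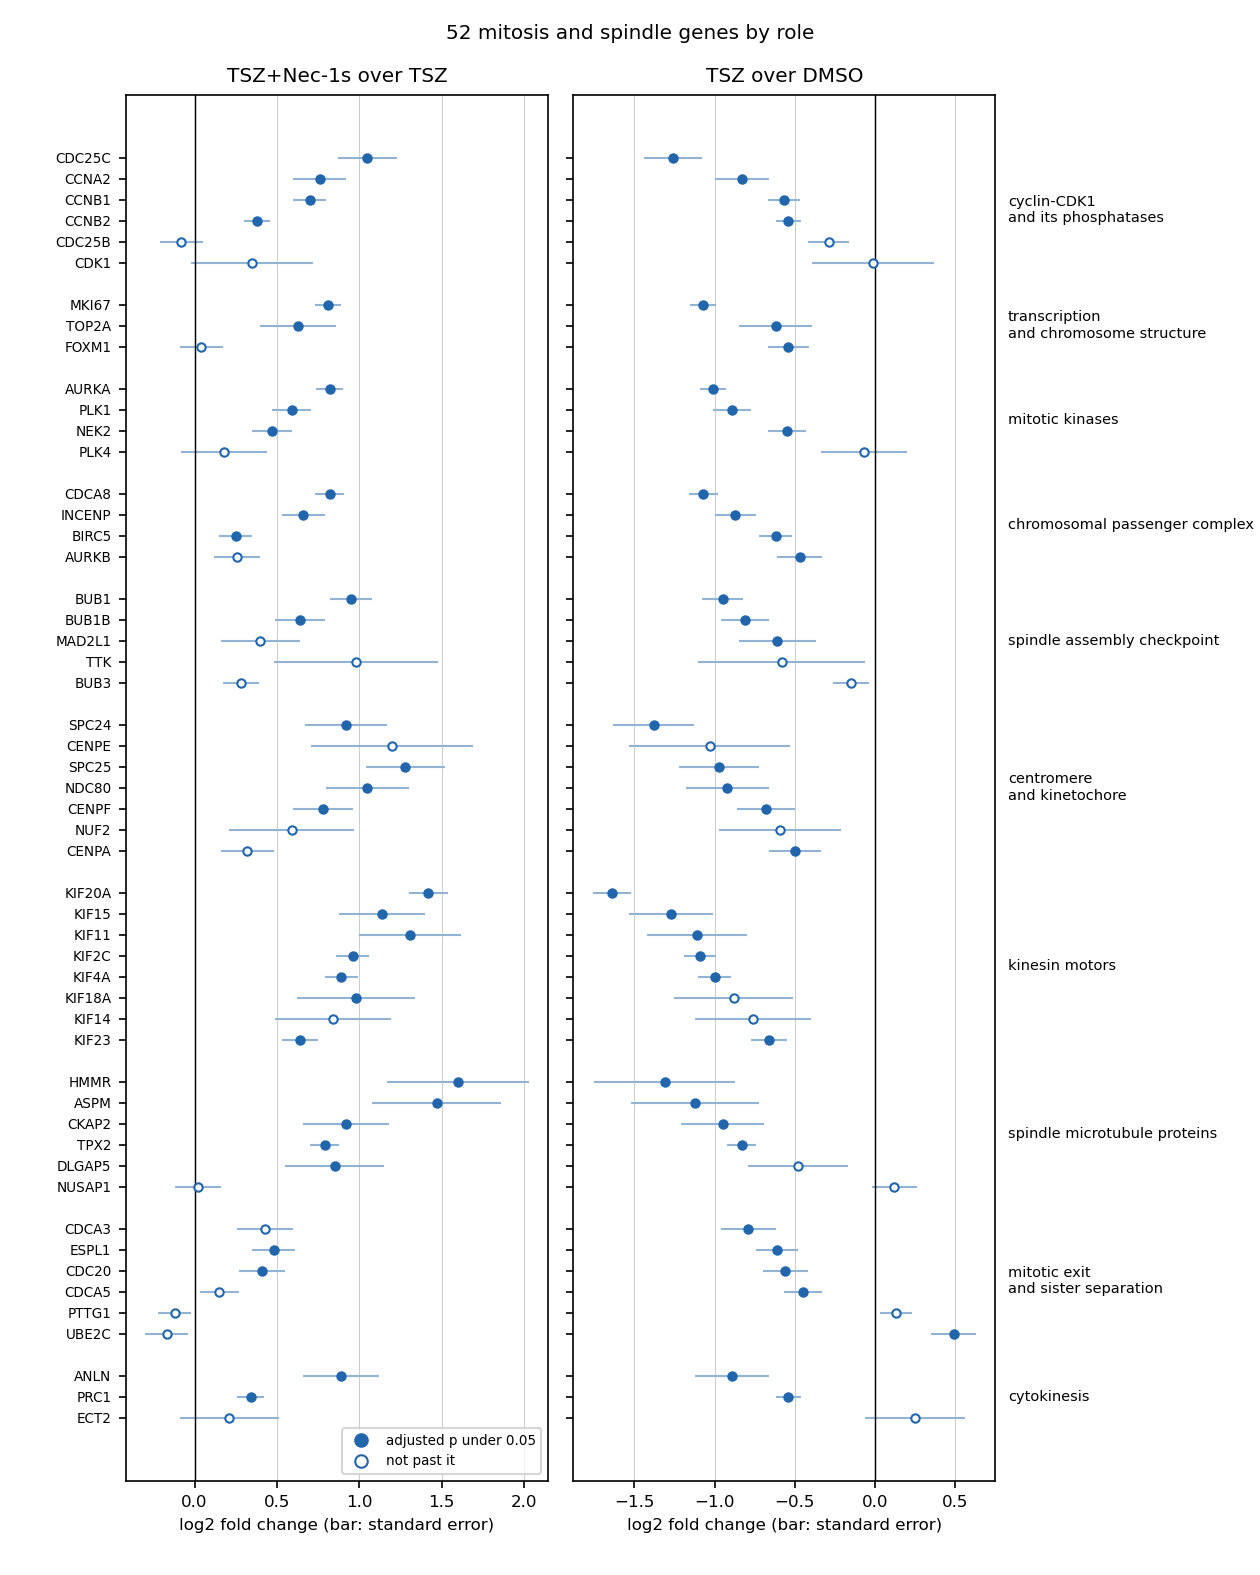
Log2 fold change of each of the 52 genes for TSZ+Nec-1s over TSZ (left) and TSZ over DMSO (right), grouped by role, with standard errors as bars and filled points at an adjusted p under 0.05. Points of the right panel lie left of 0 for 48 genes and those of the left panel right of 0 for 49 genes, and UBE2C is the 1 filled point above 0 on the right.

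Without the 3 libraries that followed base composition, 44 of the 52 were lower and 2 higher in TSZ than in DMSO, with a background of 28.8% lower and 32.5% higher among all genes. In the same 9 libraries, 44 were higher and 2 lower in TSZ+Nec-1s than in TSZ, with a background of 31.0% higher and 31.9% lower. When each library's trend against GC content was taken out instead, 44 fell in TSZ against DMSO (background 30.5%) and 39 were higher in TSZ+Nec-1s than in TSZ (background 26.3%). Scaled to total reads instead of size factors, the median of all genes itself moved to -0.43 in TSZ over DMSO and to 0.35 in TSZ+Nec-1s over TSZ. The medians of the 52 genes were then -1.13 and 1.01, still below and above the median of all genes.

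TNF-α alone moved the group little. None of the 52 passed the test in either direction against DMSO in the limma fit, where 3.11% of all genes were higher and 1.08% lower, and at an unadjusted p under 0.05 0 were higher and 4 lower. The median log2 fold change was -0.19, against a median of all genes of -0.0008, and 45 of the 52 had a negative sign. Without the 3 libraries, 0 were higher (background 7.05%) and 4 were lower (background 4.02%), namely FOXM1, TOP2A, BIRC5 and PRC1 at log2 fold changes of -0.29, -0.25, -0.29 and -0.23. Under TNF-α the AT-rich members had the more negative values, since the rank correlation of fold change with transcript GC content was 0.82 across the 52 genes with 12 libraries and 0.50 with 9, a description only since all genes share the same libraries.

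**Figure D3:**
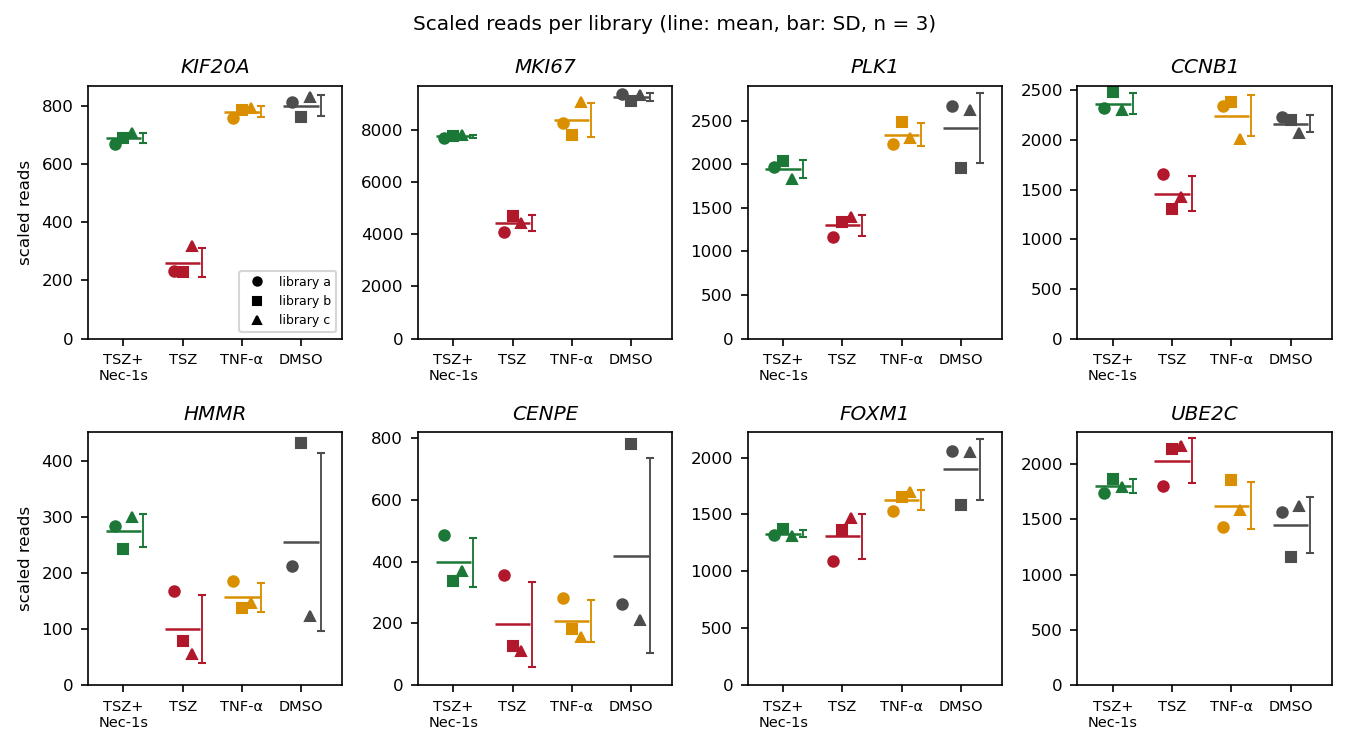
Scaled reads of 8 genes in each library of TSZ+Nec-1s, TSZ, TNF-α and DMSO (points, marked by library letter), with the mean as a line and the SD as a bar (n = 3). KIF20A separates TSZ from every other group, HMMR and CENPE spread widely within DMSO and TSZ, FOXM1 stays low with Nec-1s, and UBE2C is highest in TSZ.

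The cyclins and phosphatases of CDK1 fell in TSZ in 4 of 6 cases, with log2 fold changes over DMSO from -1.26 to -0.01. CDC25C, the phosphatase that activates CDK1 at the entry to mitosis, had 196, 159 and 192 scaled reads in the libraries of TSZ+Nec-1s, 68.8, 104 and 94 in TSZ, 146, 172 and 168 in TNF-α and 240, 202 and 190 in DMSO. The TSZ libraries lay below all others, and the log2 fold change was -1.26 ± 0.18 (SE) over DMSO (adjusted p = 7.3e-05). CCNA2, which encodes cyclin A2 of S and G2 phase, had 1294, 1260 and 1216 scaled reads in TSZ+Nec-1s, 931, 656 and 674 in TSZ, 1242, 1080 and 1039 in TNF-α and 1202, 1711 and 1134 in DMSO. Its TSZ values again overlapped no other group, with a fall of 0.83 ± 0.17 on the log2 scale (adjusted p = 0.00104), although DMSO library b stood well above the other DMSO libraries.

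CCNB1 (hg38 chromosome 5, 69167135 to 69178245), which encodes cyclin B1, the partner of CDK1 in mitosis, held 2319, 2484 and 2300 scaled reads in TSZ+Nec-1s, 1655, 1301 and 1427 in TSZ, 2346, 2385 and 2007 in TNF-α and 2228, 2198 and 2071 in DMSO. The TSZ libraries were the low ones, TNF-α overlapped both other groups, and TSZ+Nec-1s lay just above DMSO. Log2 fold changes were -0.57 ± 0.10 for TSZ over DMSO (adjusted p = 5.4e-04) and 0.70 ± 0.10 for TSZ+Nec-1s over TSZ (adjusted p = 1.6e-04). The CDK1 mRNA itself, an AT-rich transcript of 37% GC, had 780, 704 and 686 scaled reads in TSZ+Nec-1s, 855, 544 and 384 in TSZ, 558, 366 and 305 in TNF-α and 474, 1124 and 350 in DMSO. TSZ and DMSO overlapped throughout, DMSO library b held more CDK1 reads than any other library, and the log2 fold change of TSZ over DMSO was -0.01 ± 0.38 (adjusted p = 0.984).

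All 3 genes of transcription and chromosome structure were lower in TSZ. MKI67 (hg38 chromosome 10, 128096659 to 128126423), whose product Ki-67 coats mitotic chromosomes and is the usual stain for dividing cells, had 7698, 7769 and 7823 scaled reads in TSZ+Nec-1s, 4104, 4714 and 4445 in TSZ, 8292, 7798 and 9097 in TNF-α and 9379, 9105 and 9357 in DMSO. TSZ sat far below the other groups, at a log2 fold change of -1.07 ± 0.08 over DMSO (adjusted p = 2.5e-07), and TSZ+Nec-1s lay between TSZ and DMSO without touching either. TOP2A, the topoisomerase that disentangles sister chromatids, had 3356, 3145 and 3282 scaled reads in TSZ+Nec-1s, 2858, 1758 and 1864 in TSZ, 2806, 2198 and 2306 in TNF-α and 2934, 4833 and 2414 in DMSO. Here TSZ library a and DMSO library b were each the highest of their group, TSZ overlapped DMSO but not TSZ+Nec-1s, and the fold change of -0.62 ± 0.23 only just passed the test (adjusted p = 0.0373).

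FOXM1, a transcription factor that activates genes of G2 and mitosis and was singled out after its values were seen, did not follow most of the list with Nec-1s. It had 1318, 1368 and 1308 scaled reads in TSZ+Nec-1s, 1087, 1367 and 1464 in TSZ, 1527, 1649 and 1699 in TNF-α and 2054, 1582 and 2049 in DMSO. TSZ+Nec-1s lay within the range of TSZ and below every TNF-α and DMSO library. The log2 fold changes over DMSO were -0.50 ± 0.13 for TSZ+Nec-1s (adjusted p = 0.0189) and -0.54 ± 0.13 for TSZ (adjusted p = 0.00332), and TSZ+Nec-1s over TSZ gave 0.04 ± 0.13 (adjusted p = 0.824). Without the 3 libraries the first 2 were -0.62 and -0.54 and both passed, and the third was -0.09. This order of groups was not particular to FOXM1. CDC25B had 1036, 1076 and 1027 scaled reads in TSZ+Nec-1s, also within the range of TSZ (954, 1137 and 1239). These lay below every TNF-α library (1299, 1482 and 1490) and every DMSO library (1486, 1132 and 1448). E2F1 and LIG1, of the replication genes given below, had the same order.

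Of the 4 mitotic kinases, 3 were lower in TSZ. PLK1 (hg38 chromosome 16, 23677656 to 23690367), the Polo-like kinase of mitotic entry and spindle poles, had 1967, 2041 and 1830 scaled reads in TSZ+Nec-1s, 1163, 1340 and 1394 in TSZ, 2237, 2487 and 2304 in TNF-α and 2670, 1960 and 2627 in DMSO. TSZ lay below all other groups, at -0.89 ± 0.12 on the log2 scale over DMSO (adjusted p = 6.2e-05) and with TSZ+Nec-1s 0.59 ± 0.12 above TSZ (adjusted p = 0.00222). AURKA, the Aurora kinase of centrosomes, had 1550, 1568 and 1541 scaled reads in TSZ+Nec-1s, 861, 875 and 909 in TSZ, 1587, 1819 and 1659 in TNF-α and 1832, 1714 and 1797 in DMSO. Its libraries agreed closely within each group, and the fall of 1.01 ± 0.08 over DMSO had an adjusted p of 5.5e-07. PLK4, the kinase of centriole duplication, was the member that did not pass, at -0.07 ± 0.27 (adjusted p = 0.852).

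The chromosomal passenger complex, which corrects wrong microtubule attachments and guides cytokinesis, fell as a whole, with 4 of 4 genes lower in TSZ and log2 fold changes from -1.07 to -0.47. CDCA8, the borealin subunit, had 719, 767 and 779 scaled reads in TSZ+Nec-1s, 425, 414 and 438 in TSZ, 861, 882 and 864 in TNF-α and 927, 815 and 940 in DMSO. Each TSZ library held less than any other library, at -1.07 ± 0.09 over DMSO (adjusted p = 1.0e-06). INCENP, the scaffold subunit, had 1055, 1105 and 1116 scaled reads in TSZ+Nec-1s, 559, 802 and 740 in TSZ, 1208, 1297 and 1410 in TNF-α and 1274, 1149 and 1387 in DMSO. TSZ lay below every other library and TSZ+Nec-1s below every TNF-α and DMSO library, at -0.87 ± 0.13 for TSZ over DMSO (adjusted p = 1.1e-04).

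BIRC5, which encodes survivin, the subunit that reads histone marks at the centromere, had 1111, 1085 and 1088 scaled reads in TSZ+Nec-1s, 907, 948 and 897 in TSZ, 1225, 1248 and 1232 in TNF-α and 1546, 1229 and 1485 in DMSO. All 4 groups were ordered from TSZ up to DMSO, with only DMSO library b reaching down into the TNF-α range. Log2 fold changes were -0.62 ± 0.10 for TSZ over DMSO (adjusted p = 1.4e-04), -0.37 ± 0.09 for TSZ+Nec-1s over DMSO (adjusted p = 0.02) and 0.25 ± 0.10 for TSZ+Nec-1s over TSZ (adjusted p = 0.0484).

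Of the 5 spindle assembly checkpoint genes, 3 were lower in TSZ. BUB1, the checkpoint kinase at kinetochores, had 872, 857 and 902 scaled reads in TSZ+Nec-1s, 515, 463 and 387 in TSZ, 838, 754 and 741 in TNF-α and 824, 1038 and 783 in DMSO. BUB1B, which encodes BubR1 of the mitotic checkpoint complex, had 1102, 1101 and 1094 scaled reads in TSZ+Nec-1s, 855, 589 and 694 in TSZ, 1135, 955 and 989 in TNF-α and 1174, 1525 and 1056 in DMSO. In both genes no TSZ library reached another group, with falls of 0.95 ± 0.13 (adjusted p = 6.1e-05) and 0.81 ± 0.15 (adjusted p = 6.9e-04) on the log2 scale. BUB3, a WD40 protein that also works outside mitosis, had 2186, 2117 and 2131 scaled reads in TSZ+Nec-1s, 2022, 1701 and 1613 in TSZ, 1843, 1869 and 1814 in TNF-α and 1879, 2311 and 1739 in DMSO. TSZ and DMSO overlapped, and its fold change of -0.15 ± 0.11 did not pass (adjusted p = 0.299).

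The centromere and kinetochore genes had a median log2 fold change of -0.92 for TSZ over DMSO, and 5 of 7 were lower. SPC24, a subunit of the NDC80 complex that grips microtubules, had 85.4, 64.2 and 54.3 scaled reads in TSZ+Nec-1s, 33.3, 36.1 and 36.9 in TSZ, 64.5, 105 and 83.1 in TNF-α and 91.8, 85.1 and 103 in DMSO. The counts were low but the TSZ libraries were tight and below all others, at -1.38 ± 0.25 over DMSO (adjusted p = 5.1e-04). CENPE, a kinetochore motor with the lowest GC content of the 52 (35.4%), had 486, 337 and 369 scaled reads in TSZ+Nec-1s, 356, 125 and 109 in TSZ, 283, 180 and 155 in TNF-α and 264, 782 and 211 in DMSO. TSZ library a, TNF-α library a and DMSO library b were the highest of their groups by a wide margin. The log2 fold change of -1.03 ± 0.50 did not pass (adjusted p = 0.103), and without these libraries it was -1.01 and passed. CENPF, a large protein of the outer kinetochore, had 2073, 1935 and 2097 scaled reads in TSZ+Nec-1s, 1424, 1094 and 1057 in TSZ, 1801, 1474 and 1498 in TNF-α and 1811, 2555 and 1463 in DMSO. TSZ lay below every other library, at -0.68 ± 0.18 over DMSO (adjusted p = 0.00679).

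Kinesin motors had the lowest median of any role, -1.05 for TSZ over DMSO, and 6 of 8 were lower. KIF20A, a motor of the central spindle and cytokinesis on chromosome 5 (hg38, 138178719 to 138187723), had 670, 690 and 706 scaled reads in TSZ+Nec-1s, 233, 230 and 318 in TSZ, 759, 787 and 794 in TNF-α and 813, 760 and 829 in DMSO. No library of another group came near TSZ, which was 3.11-fold lower than DMSO (log2 fold change -1.64 ± 0.12, adjusted p = 1.8e-07), and TSZ+Nec-1s was 2.68-fold higher than TSZ (adjusted p = 1.2e-06). KIF15, a spindle motor that backs up KIF11, had 248, 260 and 245 scaled reads in TSZ+Nec-1s, 135, 103 and 105 in TSZ, 258, 169 and 199 in TNF-α and 251, 411 and 200 in DMSO. KIF2C, which takes microtubules apart at centromeres, had 1226, 1314 and 1180 scaled reads in TSZ+Nec-1s, 579, 699 and 636 in TSZ, 1281, 1391 and 1246 in TNF-α and 1367, 1234 and 1466 in DMSO. Both separated TSZ from every other library, at -1.27 ± 0.26 (adjusted p = 0.00124) and -1.09 ± 0.10 (adjusted p = 2.3e-06) over DMSO. KIF14 and KIF18A, both AT-rich, did not pass with 12 libraries (adjusted p = 0.097 and 0.0634) and passed without the 3 libraries, at log2 fold changes of -0.50 and -0.89.

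Of the 6 spindle microtubule proteins, 4 were lower in TSZ, with log2 fold changes from -1.31 to 0.12. HMMR, which helps to build spindle poles, had 285, 243 and 300 scaled reads in TSZ+Nec-1s, 169, 77.9 and 54.7 in TSZ, 186, 138 and 146 in TNF-α and 212, 432 and 124 in DMSO. ASPM, which focuses microtubule minus ends at the poles, had 889, 834 and 780 scaled reads in TSZ+Nec-1s, 446, 269 and 226 in TSZ, 585, 384 and 384 in TNF-α and 489, 1396 and 415 in DMSO. DMSO library b held the most reads of both genes, HMMR overlapped between TSZ and DMSO through TSZ library a and ASPM did so too, and TSZ+Nec-1s stood above TSZ in every library of both. The log2 fold changes of TSZ over DMSO were -1.31 ± 0.44 for HMMR (adjusted p = 0.0247) and -1.12 ± 0.40 for ASPM (adjusted p = 0.0328), and those of TSZ+Nec-1s over TSZ were 1.60 ± 0.43 and 1.47 ± 0.39 (adjusted p = 0.0098 and 0.00929).

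TPX2, the activator of Aurora A on spindles, had 3656, 3996 and 3902 scaled reads in TSZ+Nec-1s, 2272, 2090 and 2335 in TSZ, 3960, 3641 and 3584 in TNF-α and 4037, 4196 and 3671 in DMSO. TSZ was clear of all other libraries, at -0.83 ± 0.09 over DMSO (adjusted p = 5.1e-06), and the other 3 groups overlapped. NUSAP1, which bundles spindle microtubules, and DLGAP5 did not pass for TSZ over DMSO with 12 libraries. NUSAP1 was at 0.12 ± 0.14 for TSZ over DMSO (adjusted p = 0.481) and 0.02 ± 0.14 for TSZ+Nec-1s over TSZ (adjusted p = 0.906).

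Of the 6 genes of mitotic exit and sister separation, 4 were lower and 1 was higher in TSZ. CDCA3, which helps to degrade the mitosis inhibitor Wee1, had 403, 406 and 394 scaled reads in TSZ+Nec-1s, 251, 290 and 368 in TSZ, 391, 506 and 536 in TNF-α and 560, 420 and 581 in DMSO. ESPL1, which encodes separase, the protease that cuts cohesin, had 692, 610 and 667 scaled reads in TSZ+Nec-1s, 405, 534 and 480 in TSZ, 718, 784 and 790 in TNF-α and 827, 608 and 730 in DMSO. CDCA5, the cohesin protector sororin, had 1986, 2196 and 2110 scaled reads in TSZ+Nec-1s, 1751, 1914 and 1993 in TSZ, 2233, 2653 and 2574 in TNF-α and 2726, 2126 and 2909 in DMSO. All 3 were lower in each TSZ library than in any DMSO library, by 0.79 ± 0.17, 0.61 ± 0.13 and 0.45 ± 0.12 on the log2 scale (adjusted p = 0.00206, 0.00216 and 0.0076).

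UBE2C, the ubiquitin-conjugating enzyme of the anaphase-promoting complex, was the 1 gene of the 52 called higher in TSZ than in DMSO with 12 libraries. It had 1737, 1868 and 1797 scaled reads in TSZ+Nec-1s, 1799, 2133 and 2162 in TSZ, 1433, 1857 and 1581 in TNF-α and 1568, 1161 and 1625 in DMSO. Every TSZ library lay above every DMSO library, TSZ+Nec-1s overlapped TSZ, and the log2 fold change of TSZ over DMSO was 0.49 ± 0.14 (adjusted p = 0.0088). Scaled to total reads it did not pass (adjusted p = 0.577). PTTG1, which encodes securin, the inhibitor of separase, did not pass in either direction with 12 libraries, at 0.13 ± 0.10 (adjusted p = 0.319).

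For cytokinesis, 2 of 3 genes were lower in TSZ. ANLN, the actin-binding anillin of the contractile ring, had 1595, 1538 and 1500 scaled reads in TSZ+Nec-1s, 981, 772 and 768 in TSZ, 1473, 1080 and 1227 in TNF-α and 1442, 2370 and 1092 in DMSO. PRC1, which bundles the microtubules of the central spindle, had 2389, 2537 and 2492 scaled reads in TSZ+Nec-1s, 2000, 1884 and 1985 in TSZ, 2532, 2508 and 2496 in TNF-α and 2894, 2641 and 2982 in DMSO. TSZ was lowest without overlap in both, at -0.89 ± 0.23 (adjusted p = 0.00545) and -0.54 ± 0.08 (adjusted p = 9.2e-05) over DMSO. ECT2, the exchange factor that switches on RhoA at the cleavage site, did not pass with 12 libraries at 0.25 ± 0.31 (adjusted p = 0.517) and was higher in TSZ without the 3 libraries at 0.33. It did not pass with the GC trend removed, at 0.23.

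The 13 genes that did not pass for TSZ over DMSO with 12 libraries were CDK1, CDC25B, PLK4, BUB3, TTK, NUF2, CENPE, KIF14, KIF18A, NUSAP1, DLGAP5, PTTG1 and ECT2. Split by transcript GC content into 26 AT-rich and 26 GC-rich genes, the 52 had a median standard error of 0.26 in the AT-rich genes and 0.12 in the GC-rich genes. The median log2 fold changes of TSZ over DMSO were close, -0.72 and -0.71, while 16 AT-rich and 22 GC-rich genes were called lower. Without the 3 libraries the standard errors were 0.13 and 0.08 and the calls 21 and 23. For TSZ+Nec-1s over TSZ the medians were 0.85 in the AT-rich genes and 0.45 in the GC-rich genes. Without the 3 libraries these medians were 1.04 and 0.37, and with the GC trend removed 0.64 and 0.52.

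By role, the same 9 libraries gave more calls in TSZ over DMSO for the kinesins, 8 of 8 lower, and for the centromere and kinetochore genes, 7 of 7 lower. The cyclins and phosphatases of CDK1 had 5 of 6 lower and the spindle microtubule proteins 5 of 6. The other 6 roles kept their counts of lower genes, at 3 of 3 for transcription and chromosome structure, 3 of 4 for the kinases, 4 of 4 for the passenger complex, 3 of 5 for the checkpoint, 4 of 6 for mitotic exit and 2 of 3 for cytokinesis, where ECT2 was added as higher.

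CHR letters stood in genes that fell and in genes that did not. Of the 35 genes with CHR letters 26 were lower in TSZ than in DMSO, with a median log2 fold change of -0.76, and of the 10 with an entry and no CHR letters 8 were lower, with a median of -0.89. For TSZ+Nec-1s over TSZ, 24 of the 35 and 7 of the 10 were higher. No test was made of these counts.

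The number of the genes called between TSZ+Nec-1s and DMSO depended on the fit. In the fit of all 12 libraries it was near or below the shares over all genes. With 12 libraries the limma fit gave 3 of the 52 lower, MKI67 (log2 fold change -0.26 ± 0.08, adjusted p = 0.0496), BIRC5 and FOXM1, and 0 higher, against 5.76% lower and 7.11% higher among all genes. At an unadjusted p under 0.05 it gave 11 lower and 1 higher, a threshold to which these shares do not apply. The median was -0.06. With the GC trend removed 9 were lower (background 11.8%) and 1, UBE2C, was higher (background 14.4%). Without the 3 libraries 21 were higher and 19 lower, against 26.9% higher and 23.1% lower among all genes. Of the 21 higher genes, 19 were AT-rich, and all 19 lower genes were GC-rich. The part of base composition in these 21 and 19 calls was not tested. MKI67, BIRC5 and FOXM1 were lower in all 3 fits. With DMSO library b alone left out 7 were higher and 11 lower, and with any TSZ+Nec-1s library, DMSO library a or DMSO library c left out 0 were lower. These last counts stand without a share over all genes.

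**Figure D4:**
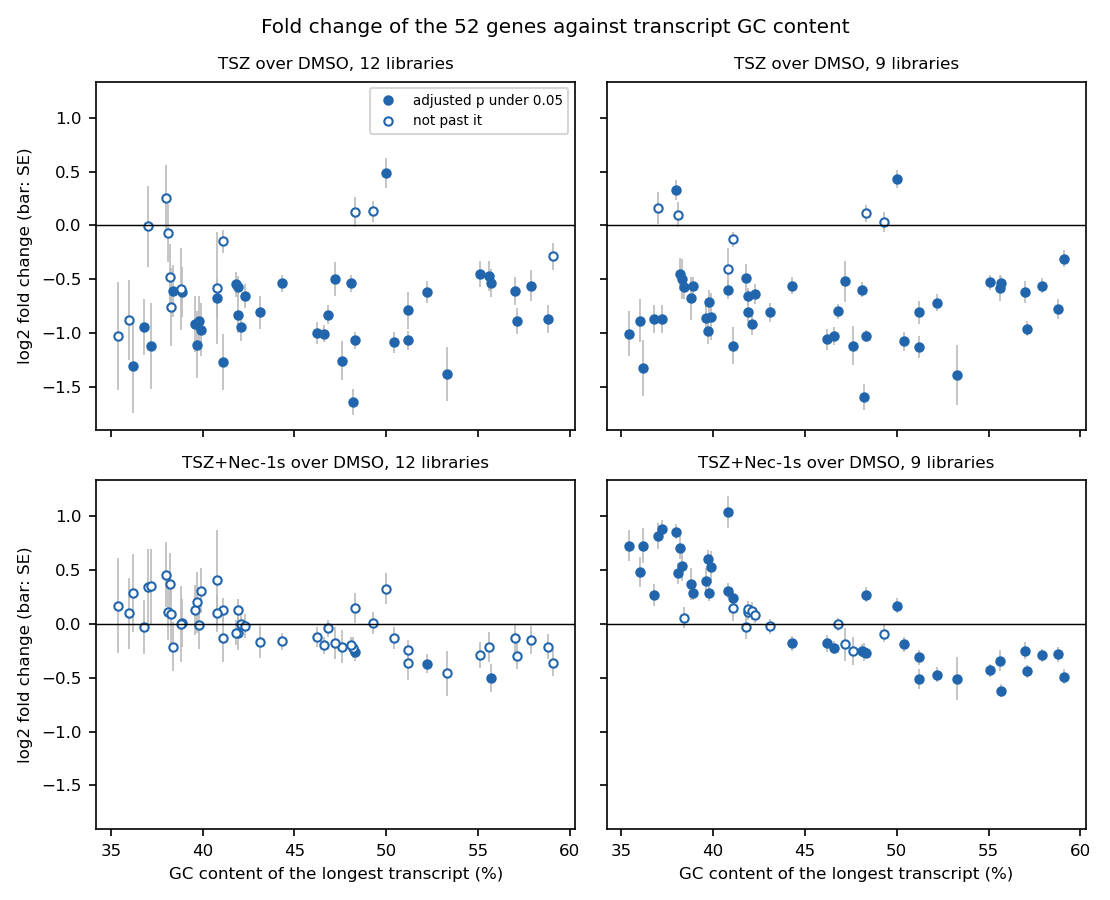
Log2 fold change (bar: SE) of the 52 genes against the GC content of their longest transcript, for TSZ over DMSO (top) and TSZ+Nec-1s over DMSO (bottom), with all 12 libraries (left) and without DMSO library b, TNF-α library a and TSZ library a (right). TSZ over DMSO lies below 0 for 48 of the 52 genes with 12 libraries, at low and at high GC content, whereas TSZ+Nec-1s over DMSO slopes from above 0 at low GC content to below 0 at high GC content, with rank correlations of -0.74 (left) and -0.90 (right).

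Compared with TNF-α alone, TSZ lowered 26 of the 52 genes and raised 0 in the limma fit, against 21.6% lower and 22.6% higher among all genes, and 2 were higher at an unadjusted p under 0.05. The median was -0.51. KIF20A, SPC24 and KIF2C changed most, at -1.60 ± 0.12, -1.21 ± 0.25 and -1.04 ± 0.10 (adjusted p = 3.2e-07, 0.00171 and 5.0e-06). Without the 3 libraries 38 were lower (background 25.7%) and 4 higher (background 30.2%). TSZ+Nec-1s against TNF-α gave 0 higher and 0 lower in the limma fit, where 1.08% of all genes were higher and 0.256% lower, with 8 and 4 at an unadjusted p under 0.05. That comparison followed GC content most closely of all, at a rank correlation of -0.93 across the 52 genes, and without the 3 libraries 25 were higher and 11 lower, with backgrounds of 22.1% and 19.1%.

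Genes around the 52, from lists written with earlier results of these data known, moved as follows in TSZ over DMSO, where 24.2% of all genes were lower and 25.9% higher with 12 libraries, and 28.8% and 32.5% without the 3 libraries. Of 59 other mitosis genes 37 were lower and 2 higher, with a median log2 fold change of -0.84, led by PSRC1 (-1.80 ± 0.16), ZWINT (-1.70 ± 0.09), DSN1 (-1.57 ± 0.12) and CENPC (-1.46 ± 0.39), which serve the spindle and the kinetochore. The 9 other libraries alone gave 45 lower and 3 higher. Of 50 genes of G1/S and DNA replication 44 were lower and 0 higher, with a median of -0.89, and without the 3 libraries 48 were lower and 0 higher. The largest were E2F2 (-2.36 ± 0.23) and E2F8 (-2.18 ± 0.15), transcription factors of the E2F family, PRIM1 (-1.95 ± 0.29), the DNA primase, and CCNE2 (-1.85 ± 0.52), cyclin E2. Of the 18 condensin and cohesin genes 7 were lower and 0 higher, with a median of -0.38, and without the 3 libraries 9 were lower and 4 higher. The largest falls included ESCO2, an acetyltransferase of cohesin, at -1.18 ± 0.39, and the condensin subunit NCAPD3, at -1.05 ± 0.09. ESCO2 had few reads and overlapped between the groups, at 57.7, 29.3 and 26.2 scaled reads in TSZ and 68.4, 146 and 54.5 in DMSO.

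Of the 17 genes of the anaphase-promoting complex 5 were lower and 2 higher, shares near or below those over all genes, with a median of -0.42. With 9 libraries 11 were lower and 3 higher. CDC23, a subunit, was at -0.95 ± 0.22, and UBE2S, which extends the ubiquitin chains that UBE2C begins, was at 0.90 ± 0.19 (adjusted p = 0.0014). UBE2S had 1471, 1385 and 1391 scaled reads in TSZ+Nec-1s, 1587, 2384 and 2099 in TSZ, 1312, 1817 and 1632 in TNF-α and 908, 950 and 1432 in DMSO, and as for UBE2C every TSZ library exceeded every DMSO library. Of the 12 DREAM and MuvB genes 5 were lower and 1 higher, with a median of -0.24, and without the 3 libraries 6 were lower and 1 higher. RBL1, which encodes the pocket protein p107, was at -1.59 ± 0.21 and the MuvB subunits LIN9 and LIN37 were at -1.20 ± 0.30 and 0.84 ± 0.19.

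Inhibitors of cyclin-dependent kinases and arrest genes went the other way, with 14 of 17 higher and 1 lower in TSZ than in DMSO and a median log2 fold change of 1.56, and the counts were the same without the 3 libraries. CDKN1A, which encodes p21, had 720, 695 and 761 scaled reads in TSZ+Nec-1s, 5955, 7596 and 7809 in TSZ, 417, 427 and 433 in TNF-α and 102, 83 and 119 in DMSO. No group overlapped another, and the log2 fold changes over DMSO were 2.85 ± 0.17 in TSZ+Nec-1s, 6.13 ± 0.16 in TSZ and 2.08 ± 0.17 in TNF-α (adjusted p = 1.5e-07, 1.8e-11 and 8.3e-06). CDKN2B, the inhibitor p15 of CDK4 and CDK6, had 167, 161 and 164 scaled reads in TSZ+Nec-1s, 1213, 1202 and 1131 in TSZ, 129, 110 and 111 in TNF-α and 82.8, 108 and 95.1 in DMSO. BTG1, an antiproliferative factor, was also among the highest at 3.91 ± 0.15. CDKN2C, the inhibitor p18, was the 1 gene that fell, at -3.21 ± 0.25.

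**Figure D5:**
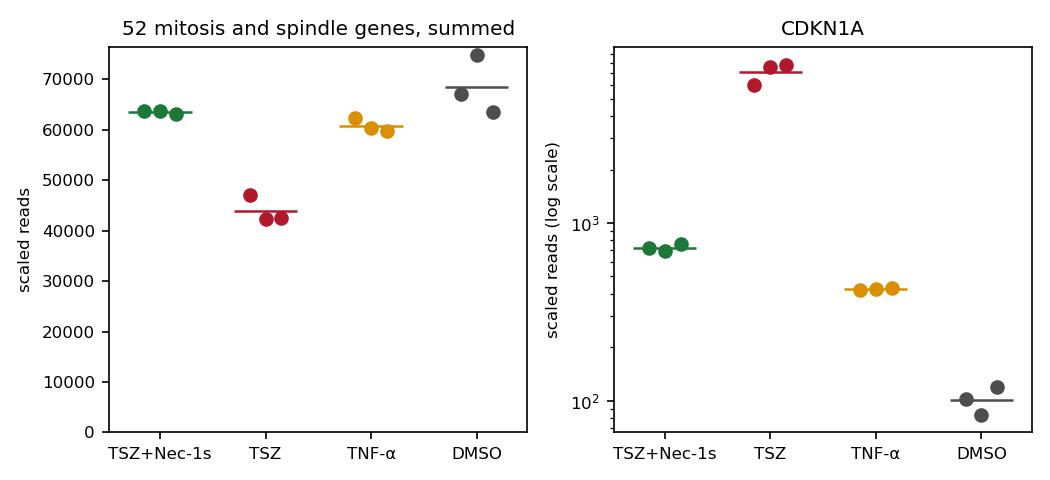
Summed scaled reads of the 52 mitosis and spindle genes (left, linear axis from 0) and scaled reads of CDKN1A (right, log axis) in each library of TSZ+Nec-1s, TSZ, TNF-α and DMSO, with group means as lines. The sums are lowest in the 3 TSZ libraries, where CDKN1A is highest, and TSZ+Nec-1s and TNF-α lie between TSZ and DMSO for CDKN1A.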

How the data were processed

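Polyadenylated RNA of HT-29 cells was sequenced in 12 libraries, grouped by their labels. The submitters' processing notes name STAR, HTSeq, DESeq and hg38. Reads were counted without regard to strand, so strand did not assign reads from a stretch that a gene shares with an antisense gene. The signal values deposited by the authors in 6 tables are the means of scaled counts in each group. Their columns of overall means, ratios, log2 ratios and p-values for each comparison were not used. The number of value columns matched to no sample was 0. Each mean is a sum of 3 whole counts divided by size factors, so reads per library were solved, for 15646 to 15845 genes a group, and libraries were lettered by size factor. limma 3.58.1 (R 4.3.3) with precision weights was fitted to 11708 genes with a mean of at least 10, in 1 fit of 4 groups and 6 comparisons, adjusted by Benjamini-Hochberg, and tested on simulated data. A further 50 genes above this mean were not solved and not tested. Transcript GC content and gene positions came from GENCODE for hg38. Python 3.11.15 with numpy 2.4.6, pandas 2.3.3 and matplotlib 3.10.9 was used elsewhere.

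The members and lists were chosen with earlier results of these data known. Values per library are given, within each role, for the 2 genes with the largest change in TSZ over DMSO and for the gene with the most reads, for at most 3 genes called in TNF-α over DMSO (there were 0), for PLK1, CCNB1 and CDKN1A, and for genes called against their role. From each other list at most 4 called genes with the largest change were named. CDK1, CDC25B, FOXM1, PLK4, NUSAP1, PTTG1, ECT2, KIF14, KIF18A, E2F1 and LIG1, and UBE2S by library, were described after their values were seen. Alternatives were another scaling, other filters on low counts, no weights, removal of GC trends, fewer libraries and a fold threshold.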

Additional observations from a re-analysis of the deposited data

How the results depend on the processing

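No paired analysis was possible because the libraries solved from group means carry no replicate numbers. Counts of the 52 genes that moved by over 1.5 times were as follows. Counts given here for the first time without a share over all genes beside them carry no background. Scaled to total reads, 0 were higher in TSZ over DMSO and 11 lower in TSZ+Nec-1s over DMSO. With the GC trend removed, 4 were lower in TNF-α over DMSO, 2 higher in TSZ over DMSO, 1 higher and 9 lower in TSZ+Nec-1s over DMSO, 2 higher in TSZ over TNF-α and 1 lower in TSZ+Nec-1s over TNF-α. With only the groups compared in the fit, 1 was lower in TSZ+Nec-1s over DMSO, 1 higher in TSZ over TNF-α, and 20 higher and 6 lower in TSZ+Nec-1s over TNF-α. With a fold over 1.5 also asked for, 0 were higher in TSZ over DMSO and 0 lower in TSZ+Nec-1s over DMSO. Without DMSO library b, TNF-α library a and TSZ library a, 4 were lower in TNF-α over DMSO, 2 higher in TSZ over DMSO, 21 higher and 19 lower in TSZ+Nec-1s over DMSO, 4 higher in TSZ over TNF-α, 25 higher and 11 lower in TSZ+Nec-1s over TNF-α and 2 lower in TSZ+Nec-1s over TSZ. The cause was not tested.

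Leaving out 1 library at a time gave 33 to 41 lower and 1 to 2 higher in TSZ over DMSO, 29 to 39 higher and 0 lower in TSZ+Nec-1s over TSZ, and 22 to 35 lower and 0 to 2 higher in TSZ over TNF-α. For TNF-α over DMSO it gave 0 higher and 0 to 1 lower, for TSZ+Nec-1s over DMSO 0 to 7 higher and 0 to 11 lower, and for TSZ+Nec-1s over TNF-α 0 to 5 higher and 0 to 1 lower. The upper ends for these TSZ+Nec-1s comparisons came without DMSO library b. No share over all genes was set beside the counts of these fits. Single genes were followed for 27 of the 52 and not for the other members. The 27 had the largest changes in TSZ over DMSO or the most reads of their role, with PLK1 and CCNB1 added. They were scored as unchanged in 3005 of 3240 refits and as reversed in 2. Both reversals were for TSZ+Nec-1s over DMSO and for genes near 0 and not called with 12 libraries. ANLN went from -0.01 to 0.29 without the 3 libraries, and TOP2A from 0.01 to -0.20 with the GC trend removed. Other changes of sign near 0 were not scored as reversals. BUB3 in TNF-α over DMSO, for example, went from -0.09 to 0.02 without the 3 libraries. CHR letters stood in 32 of 45 genes by TTTGAA alone. SPC24 had the fewest reads of the 52 genes, 30 in its lowest library.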
